A study of Mus musculus with 69 samples.

Results

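The 10 genes Sp5, Lef1, Tcf7, Axin2, Nkd1, Dkk1, Dkk4, Notum, Lgr5 and Rspo3 are targets, feedback regulators and antagonists of canonical Wnt signalling. They were taken by symbol from a table of raw counts for 55367 genes in 69 bulk mRNA sequencing libraries, and all 10 were found. The libraries came from mosaic mouse gastruloids, which are aggregates of mES cells that model the posterior embryo, and from the mES cell clones used to make them. Every clone derived from E14Tg2A mES cells kept in serum with LIF. WT-mCherry carried an H2B-mCherry transgene driven by the EF1α promoter, WT-emiRFP an H2B-emiRFP670 transgene driven by the CAG promoter, and p53KO-emiRFP was a daughter clone of WT-emiRFP with a +1 frameshift in exon 4 of Trp53, isolated under the p53 activator Nutlin-3a. The 3 clones were sequenced as mES cells at 0 h. FACS then separated WT-mCherry from WT-emiRFP cells in WT + WT gastruloids, seeded with 150 cells of each, and WT-mCherry from p53KO-emiRFP cells in WT + p53KO gastruloids, seeded with 150 and 25 cells, at 48, 72, 96, 120 and 144 h. Gastruloids kept beyond 48 h received the GSK3 inhibitor CHIR99021, an activator of Wnt signalling, between 48 and 72 h. Each of the 23 groups had 3 replicates, from experiments that the study's methods describe as separate in time. WT was represented by 2 clones with different reporters and p53KO by 1, and cells of many gastruloids were pooled. Since WT-emiRFP and p53KO-emiRFP cells were seeded in different numbers, the effects of genotype, clone and seeding number cannot be told apart.

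In canonical Wnt signalling, secreted Wnt ligands bind Frizzled receptors and the co-receptors Lrp5 and Lrp6. β-catenin is then no longer degraded and acts with TCF/LEF factors on target genes, many of which encode inhibitors of the same pathway. In the embryo this signalling maintains the primitive streak and the tail bud and promotes formation of paraxial mesoderm.

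Library totals ranged from 26722541 to 72981570 counts, with a median of 53098728. Counts were divided by median-of-ratios size factors, and levels below are these normalized counts as mean ± SD of 3 replicates. Trp53 was at 8.33 to 11.4% of its WT-emiRFP level in p53KO-emiRFP cells over the 6 times. The histone genes H2bc14 and H2bc21, which were high in emiRFP libraries, gave an estimate of RNA from emiRFP cells in WT-mCherry libraries. By H2bc14 this was at most 1.95% beside WT cells, and beside p53KO cells 3.24 to 7.005% at 120 h and 2.33 to 17.4% at 144 h. By H2bc21 it was at most 5.18% beside WT cells, and beside p53KO cells 10.4 to 17.7% at 120 h and 2.75 to 20.4% at 144 h. WT-mCherry values beside p53KO cells are therefore also given after subtraction where this changed them. The subtraction takes the level of both histone genes in WT-mCherry cells as unchanged since 0 h, and the tests after it treat the share as known. The markers can differ within a library, with 6.12% by H2bc14 and 17.7% by H2bc21 in replicate 3 beside p53KO cells at 120 h. Naive pluripotency markers summed to 197200.3 to 205995 normalized counts in WT-emiRFP mES cells against 78906 to 92112 in WT-emiRFP cells at 144 h. In all comparisons of bulk samples, fewer cells of a type and less RNA per cell cannot be told apart.

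On GRCm38 in the Gencode vM21 annotation all 10 members are protein-coding. The transcription factor genes are Sp5 at chr2:70474923-70477729 on the forward strand, Lef1 at chr3:131110471-131224356 on the forward strand and Tcf7 at chr11:52252371-52283014 on the reverse strand. Of the genes for intracellular inhibitors, Axin2 is at chr11:108920349-108950783 and Nkd1 at chr8:88521354-88594884, both on the forward strand. The secreted inhibitors are encoded by Dkk1 at chr19:30545863-30549665 on the reverse strand, Dkk4 at chr8:22624043-22627547 on the forward strand and Notum at chr11:120653788-120661175 on the reverse strand. Lgr5 at chr10:115450311-115587780 and Rspo3 at chr10:29452416-29535867, both on the reverse strand, complete the set.

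Promoter windows from 250 bases before to 50 bases after a transcript start were available from RefSeq on GRCm38.p6 for 6 of the 10 members, Sp5, Lef1, Tcf7, Axin2, Nkd1 and Dkk1. They were searched on both strands for CTTTGAA and CTTTGAT, 2 forms of the TCF/LEF motif. Matches cannot overlap on the same strand, but on opposite strands they can share up to 2 bases. Of all 32851 windows, 8.65% held one or the other. Sp5 and Dkk1 held 1 match each, and the other 4 members held none. Sequences are shown for these 2 members because no other member searched held a match. Sp5 lies directly downstream of the 250 bases at chr2:70474673-70474922 (forward strand), whose match starts 104 bases before the transcript start. The Dkk1 match starts 117 bases before the RefSeq start, in the first exon of the longer vM21 transcript (5′ UTR), and is shown with 10 bases on either side, at chr19:30549597-30549623 (reverse strand). Capitals mark the motif. A match is a description of these letters and no evidence of binding.
Sp5: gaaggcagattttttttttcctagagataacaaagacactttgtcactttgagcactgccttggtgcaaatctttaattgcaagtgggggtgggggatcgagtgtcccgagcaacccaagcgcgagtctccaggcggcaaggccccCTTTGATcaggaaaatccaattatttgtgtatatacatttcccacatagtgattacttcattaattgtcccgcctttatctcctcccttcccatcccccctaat
Dkk1: cctcccaaagCTTTGAAatcccatccc

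**Figure D1:**
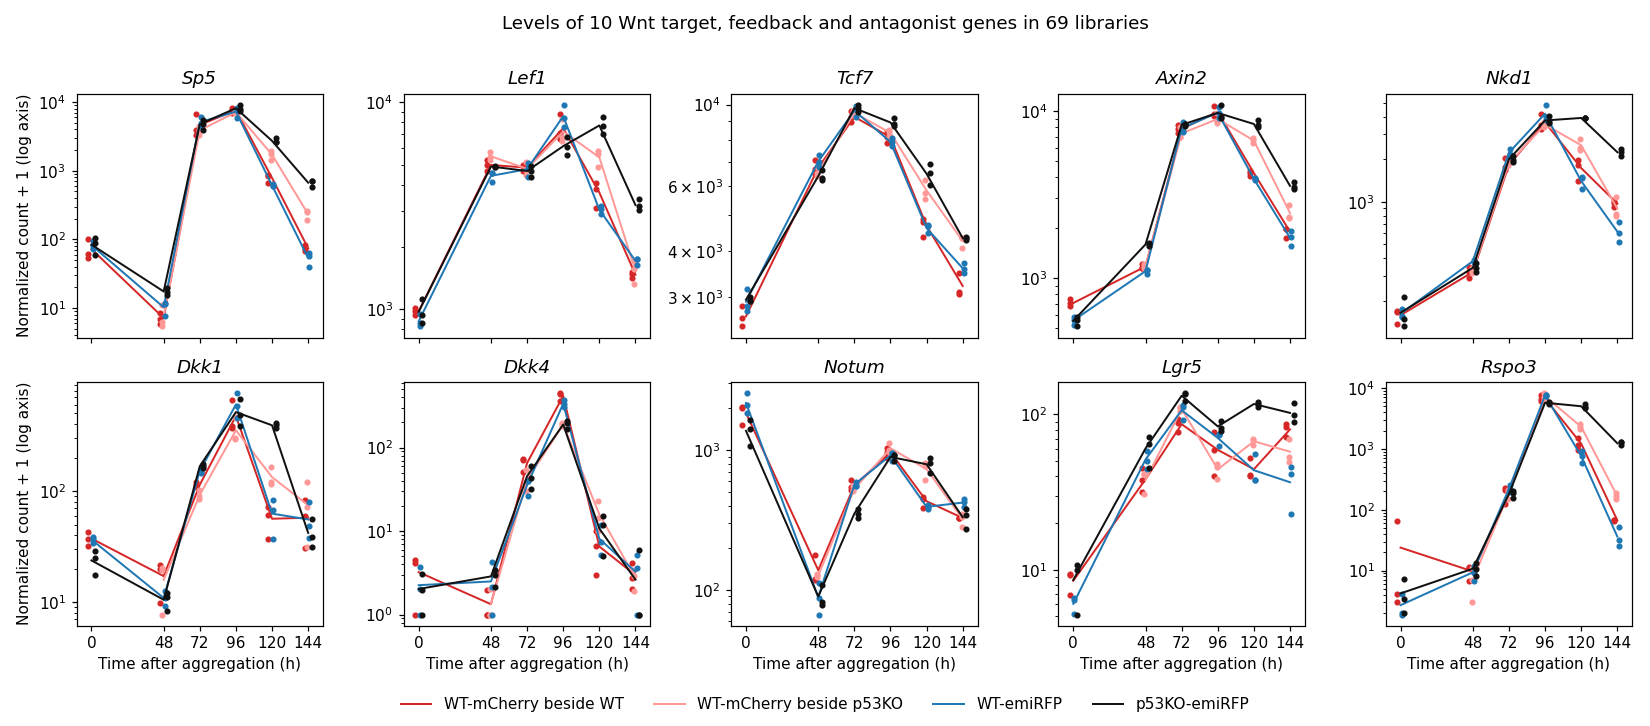
Normalized count + 1 of each member (log axis) against time after aggregation (h). Points are libraries, shifted sideways by population, and lines join the means of 3 replicates; the 0 h points of the red line are WT-mCherry mES cells. In WT-emiRFP cells all 10 genes fell between 96 and 120 h, while in p53KO-emiRFP cells Lef1 and Lgr5 rose.

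The course in WT-emiRFP cells shows when the genes were expressed in this system. No library after 48 h came from gastruloids without CHIR99021, so the pulse and developmental time cannot be told apart. Between 48 and 72 h, the interval of the CHIR pulse, 9 of 10 members rose in WT-emiRFP cells by edgeR's quasi-likelihood test in one fit of all libraries, where 25% of all tested genes rose and 49.6% changed. In p53KO-emiRFP cells the same count was 9 of 10, with 23.1% of all tested genes rising and 46.4% changing. The exception in both was Lef1, which changed by 0.11 ± 0.10 (adjusted p = 0.40) in WT-emiRFP and by -0.071 ± 0.10 (adjusted p = 0.59) in p53KO-emiRFP cells on the log2 scale.

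Among the transcription factors, Sp5, a zinc finger protein and direct β-catenin target, had means in WT-emiRFP cells of 81.5 ± 10.8, 9.21 ± 2.23, 5097 ± 926, 7303 ± 1250.5, 611 ± 22.7 and 52.4 ± 11.8 in the order 0, 48, 72, 96, 120 and 144 h, which is used for all members here. It fell on exit from the mES cell state, and then rose by 9.10 ± 0.29 (adjusted p = 2.9e-33) on the log2 scale from 48 to 72 h. Lef1, which binds DNA and recruits β-catenin, was at 876 ± 61.6, 4414 ± 263, 4748 ± 357, 8568 ± 1075, 3029 ± 141 and 1713 ± 69.9. Its main rise came before the pulse, 2.33 ± 0.11 (adjusted p = 6.5e-27) from 0 to 48 h, with a second rise from 72 to 96 h of 0.85 ± 0.10 (adjusted p = 1.5e-10). Tcf7, the gene of TCF1, varied least over time of the 10 members in the ratio of highest to lowest mean, at 2910.1 ± 218, 7000.4 ± 257, 9624 ± 352, 7910.3 ± 201, 4612 ± 129 and 3586 ± 111. It was highest at 72 h in all 4 populations, and in none of them did the 72 h libraries overlap those of the next highest time, 96 h.

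The inhibitors that act inside the cell rose before 48 h and again from 48 to 72 h. Axin2, a scaffold of the complex that degrades β-catenin, was at 556 ± 29.3, 1099.5 ± 41.6, 7873 ± 576, 9749.7 ± 739, 3918 ± 59.6 and 1741 ± 174. Nkd1, which binds Dishevelled, was at 161 ± 12.5, 379.9 ± 7.88, 2223 ± 131, 4195 ± 577, 1401 ± 148 and 615 ± 102. Over the 23 group means, these genes were the most similar pair of members (Pearson r of log2(normalized count + 1) = 0.971). Both were highest at 96 h in WT-emiRFP cells, with no overlap with the libraries of 72 h.

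Among the secreted inhibitors, Dkk1 and Dkk4 were both highest at 96 h, unlike Notum. Dkk1, which blocks Lrp5 and Lrp6, was at 35.6 ± 2.23, 9.91 ± 1.65, 151 ± 5.81, 601 ± 157, 61.7 ± 23.5 and 54.5 ± 22.3. Its family member Dkk4 was at 1.25 ± 1.36, 1.49 ± 1.68, 34.5 ± 7.98, 335 ± 30.9, 7.08 ± 3.32 and 2.26 ± 2.11, so that its mean exceeded 10 normalized counts only at 72 and 96 h. Notum, an enzyme that inactivates Wnt ligands by removing their lipid, had another course, at 2174 ± 372, 87.8 ± 22.9, 566 ± 24.5, 917 ± 69.5, 392 ± 15.8 and 421 ± 29.4. It was highest in mES cells, fell by 4.63 ± 0.16 on the log2 scale by 48 h (adjusted p = 8.4e-32) and reached a second, lower maximum at 96 h.

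Rspo3, the R-spondin ligand that keeps Wnt receptors at the cell surface, was near 0 until 48 h and peaked sharply, at 1.70 ± 1.27, 8.35 ± 2.64, 219 ± 29.3, 7547 ± 257, 763 ± 174 and 35.3 ± 14.3. Its rise of 5.11 ± 0.21 (adjusted p = 1.2e-27) from 72 to 96 h was the largest of any member in that interval. Lgr5, a receptor for R-spondins, was lowly expressed throughout, at 5.03 ± 0.743, 50.3 ± 6.82, 105 ± 12.3, 69.6 ± 7.18, 42.7 ± 10.1 and 35.6 ± 12.3. One WT-mCherry mES cell library, replicate 2, had a Rspo3 level of 63.3, against 3.14 and 2.07 in the others. That library was also high in markers of the streak and caudal epiblast. Its levels were 286 for T, 204 for Nkx1-2, 68.0 for Msgn1 and 189 for Cdx2, where the other WT-mCherry mES cell libraries had at most 47.6, 8.27, 4.18 and 77.3. No member passed edgeR's test between the WT clones at 0 h with all replicates or without replicate 2.

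From 0 to 48 h, 8 members changed in WT-emiRFP and 7 in p53KO-emiRFP cells, beside 60.3% and 59.5% of all tested genes, and these counts are near that background. From 72 to 96 h all 10 changed in each population (beside 41.6% and 44.6%), 8 up and 2 down in each. The members that fell were Tcf7 and Lgr5. In p53KO-emiRFP cells the fall of Tcf7 (-0.13 ± 0.052, adjusted p = 0.039) did not pass when any 1 replicate was left out, and in either population that of Lgr5 did not pass without replicate 1. The rise of Sp5 in WT-emiRFP cells (0.52 ± 0.15, adjusted p = 0.0042) did not pass without replicate 2, nor that of Axin2 in p53KO-emiRFP cells without replicate 3. Between 120 and 144 h, 6 fell in WT-emiRFP cells (beside 33.9% of genes changed) and 9 in p53KO-emiRFP cells (beside 22.7%), and none rose. The fall of Dkk4 in p53KO-emiRFP cells did not pass without replicate 1 or without replicate 2.

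Levels of different genes were compared per kilobase of annotated exon. At 96 h in WT-emiRFP cells the order in normalized counts per kilobase was Sp5 (3477 ± 595), Tcf7 (3013 ± 76.7), Rspo3 (2442 ± 83.2), Axin2 (1771 ± 134), Lef1 (975 ± 122), Nkd1 (920.4 ± 127), Notum (381 ± 28.9), Dkk4 (254 ± 23.5), Dkk1 (247 ± 64.8) and Lgr5 (6.78 ± 0.700). The replicate ranges of Sp5 and Tcf7, of Lef1 and Nkd1 and of Dkk4 and Dkk1 overlapped, and those of the other neighbours in the order did not. In WT-emiRFP mES cells Tcf7 (1109 ± 83.0) and Notum (903 ± 155) led, with overlapping ranges, and Axin2 (101 ± 5.33) came next. At 144 h Tcf7 (1366 ± 42.1) was again first and Axin2 (316 ± 31.7) followed.

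The first comparison asked how p53KO-emiRFP cells differed from WT-emiRFP cells, which from aggregation on were both grown with WT-mCherry cells. Few members differed up to 72 h. At 0 h only Notum of the 7 tested members passed the threshold (adjusted p under 0.05 over all genes in edgeR's test), where 6.14% of all tested genes did. Dkk4, Lgr5 and Rspo3 were too low to be tested. Notum was at 1633, 1419 and 1068 in p53KO-emiRFP and 2570.2, 2119 and 1831 in WT-emiRFP mES cells, and the groups did not overlap. The log2 fold change was -0.66 ± 0.17 (adjusted p = 0.031), which did not pass without replicate 2.

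At 48 h only Axin2 of 8 tested members passed, beside 22.1% of all genes. Its levels were 1547, 1613 and 1607 in p53KO-emiRFP and 1125, 1122 and 1052 in WT-emiRFP cells, a log2 fold change of 0.53 ± 0.054 (adjusted p = 2.9e-06). With the replicate number as a block, Lef1 (0.15, adjusted p = 0.00039) and Tcf7 (-0.13, adjusted p = 0.00067) passed as well, which makes 3, beside 41.1% of all genes in that fit. At 72 h 1 of 10 passed, beside 29.1% of genes. This was Notum, at 348, 327 and 377 in p53KO-emiRFP against 594, 549 and 554 in WT-emiRFP cells, with a log2 fold change of -0.69 ± 0.087 (adjusted p = 3.3e-05).

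At 96 h, when 7 of 10 members had their highest mean in WT-emiRFP cells, 4 of 10 members passed, beside 23.3% of genes. Dkk4 had levels of 204, 164 and 196 in p53KO-emiRFP and 367, 331 and 306 in WT-emiRFP cells, a log2 fold change of -0.83 ± 0.12 (adjusted p = 0.00014). Lef1 (-0.48 ± 0.12, adjusted p = 0.0085) and Rspo3 (-0.40 ± 0.087, adjusted p = 0.0041) were also lower in p53KO-emiRFP cells, and Tcf7 was slightly higher, by 0.18 ± 0.041 (adjusted p = 0.0061). With the replicate number as a block, Nkd1 (-0.16, adjusted p = 0.0093) and Dkk1 (-0.23, adjusted p = 0.018) also passed, both lower, beside 38.6% of all genes. Without replicate 1, Lef1, Tcf7 and Rspo3 no longer passed, and without replicate 2, Lef1 and Tcf7 did not.

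At 120 h most members differed. Of the 10 members, 9 passed, all of them higher in p53KO-emiRFP cells, and in these 9 no p53KO-emiRFP library overlapped a WT-emiRFP library. Of all tested genes, 51% passed, 27.3% were higher and 32.8% were higher with no overlap. The median log2 fold change was 1.40 over the 10 members and 0.046 over all genes tested. The exception was Dkk4, which was low again in each population, at 14.3, 10.9 and 4.01 in p53KO-emiRFP and 4.11, 10.7 and 6.47 in WT-emiRFP cells (log2 fold change 0.45 ± 0.56, adjusted p = 0.54).

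Rspo3 and Dkk1 differed most. Rspo3 was at 4622, 4958 and 5462 in p53KO-emiRFP and 935, 586 and 767 in WT-emiRFP cells, a log2 fold change of 2.72 ± 0.17 (adjusted p = 1.6e-08). Dkk1 was at 371, 409 and 390.4 and 82.1, 66.9 and 36.1, a log2 fold change of 2.67 ± 0.25 (adjusted p = 1.0e-06). Every p53KO-emiRFP library lay several-fold above every WT-emiRFP library for these genes, one a ligand that enhances Wnt reception and the other a blocker of the co-receptors. Sp5 followed, at 2588, 2965 and 2628 against 635, 590.2 and 608 and a log2 fold change of 2.16 ± 0.12 (adjusted p = 5.0e-09).

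Nkd1 was at 3892, 3930.2 and 3913 in p53KO-emiRFP and 1505, 1231 and 1466 in WT-emiRFP cells, a log2 fold change of 1.48 ± 0.11 (adjusted p = 1.1e-07). Lgr5, still lowly expressed, was at 116, 111 and 119 against 54.4, 36.8 and 37.0, a log2 fold change of 1.44 ± 0.17 (adjusted p = 9.7e-06). Rspo3 and this receptor of R-spondins were thus both higher. Lef1 was at 7058, 7658 and 8474 against 3162, 2881 and 3043, a log2 fold change of 1.35 ± 0.10 (adjusted p = 8.3e-08). Axin2 was at 8833, 7974 and 8237 against 3938, 3851 and 3966, a log2 fold change of 1.09 ± 0.054 (adjusted p = 1.7e-09). Both had closely spaced replicates in each group. Notum had a log2 fold change of 1.01 ± 0.12 (adjusted p = 9.2e-06), and Tcf7 had the smallest one to pass, 0.49 ± 0.065 (adjusted p = 2.4e-05).

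Cell type markers moved with these genes at 120 h. All 8 caudal epiblast markers and all 7 paraxial mesoderm markers were higher in p53KO-emiRFP cells, beside 27.3% of all tested genes. The summed level of the caudal epiblast list was 55537 to 61622 in p53KO-emiRFP and 14888 to 18899 in WT-emiRFP libraries, and that of the paraxial mesoderm list 18685 to 22931 and 2899 to 3733. Conversely, all 7 markers of naive pluripotency were lower (sums 10873 to 11571 against 59942 to 69374), as were all 6 primordial germ cell markers (sums 2644 to 2723 against 9991 to 11089) and 6 of 8 haematoendothelial markers (sums 882 to 1239 against 5754 to 5963). Of the others, somite markers had 2 higher and 0 lower of 6, neural markers 2 higher and 1 lower of 7, endoderm markers 0 higher and 3 lower of 6, and cardiac and lateral plate markers 1 higher and 3 lower of 6. Over all tested genes 51% passed, and the shares of somite, neural and endoderm markers that passed were no higher. No marker of these lists was at 0 in a whole group. The part of cell composition in the differences of the 10 members was not tested.

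**Figure D2:**
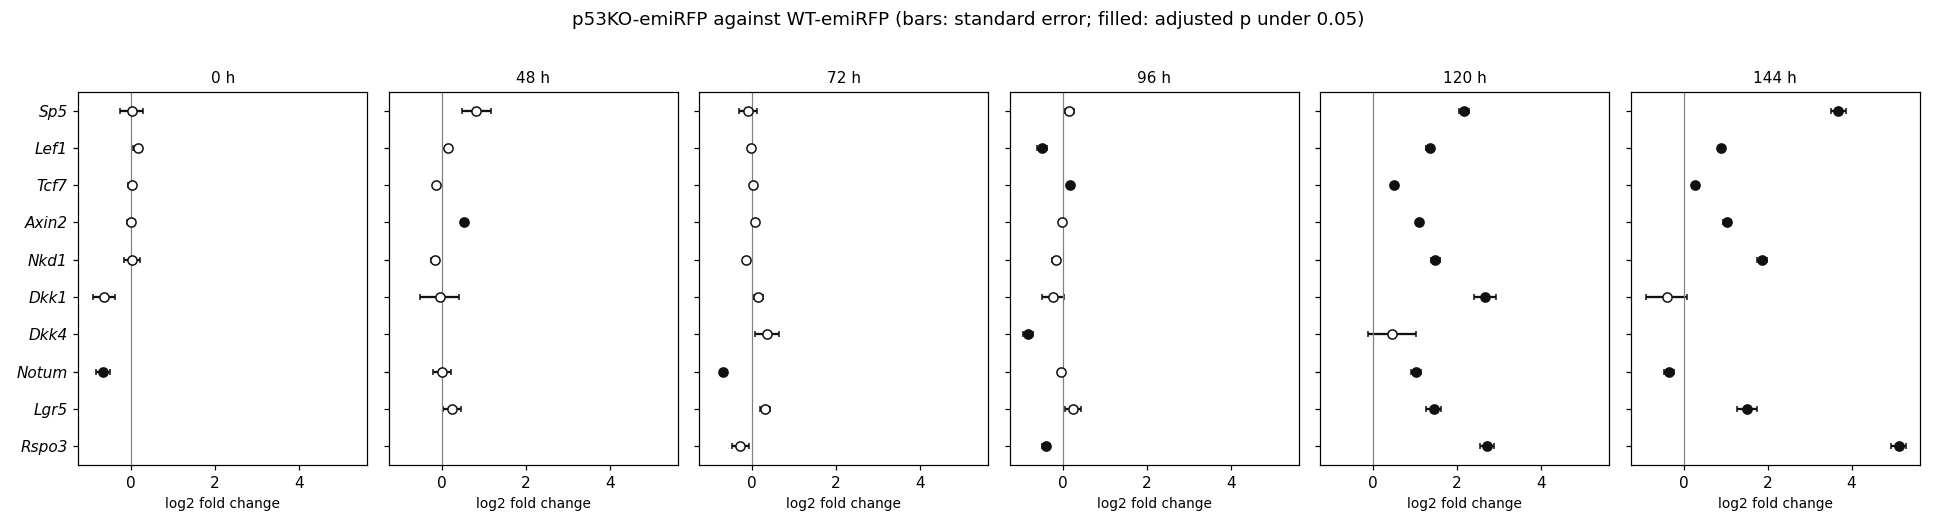
Log2 fold change of p53KO-emiRFP against WT-emiRFP cells for each member, with 1 panel per time. Bars are standard errors, filled points passed the threshold, and members too low to be tested have no point. Filled points are few up to 72 h. At 96 h 4 are filled, 3 of them left of 0, and at 120 h 9 of 10 are filled and lie to the right of 0.

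At 144 h, 8 of 9 tested members passed, 7 higher and 1 lower, where 65.4% of all genes passed and 33.2% were higher. Rspo3 was at 1149.8, 1278 and 1279 in p53KO-emiRFP and 51.3, 24.1 and 30.4 in WT-emiRFP cells, a log2 fold change of 5.12 ± 0.19 (adjusted p = 1.3e-10), the largest of any member and time. Sp5 was at 585, 706 and 717 against 61.6, 56.5 and 39.1, a log2 fold change of 3.68 ± 0.18 (adjusted p = 1.0e-09). Both genes had fallen in each population since 120 h, but from different levels. Nkd1 (1.87 ± 0.13, adjusted p = 1.8e-08), Lgr5 (1.52 ± 0.24, adjusted p = 6.9e-05), Axin2 (1.03 ± 0.088, adjusted p = 1.8e-07), Lef1 (0.90 ± 0.081, adjusted p = 3.4e-07) and Tcf7 (0.27 ± 0.056, adjusted p = 0.00072) were also higher.

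The secreted inhibitors Dkk1 and Notum were not. Dkk1 was at 30.1, 55.1 and 37.8 in p53KO-emiRFP and 47.6, 79.5 and 36.5 in WT-emiRFP cells, overlapping groups with a log2 fold change of -0.40 ± 0.48 (adjusted p = 0.48). Notum was lower in p53KO-emiRFP cells, at 343, 271 and 377 against 449, 390.1 and 423 (-0.35 ± 0.12, adjusted p = 0.023), a difference that did not pass without replicate 1 or without replicate 2. Dkk4 was too low to be tested. All 8 caudal epiblast markers (sums 26025 to 27443 against 2919 to 4207), 7 paraxial mesoderm markers (sums 5157 to 5442 against 611 to 864) and 6 somite markers (sums 23981 to 32477 against 4126 to 5552) were higher at 144 h, beside 33.2% of all tested genes. All 7 markers of naive pluripotency were lower (sums 13138 to 20024 against 78906 to 92112). The part of these cell types in the differences was not tested.

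Whether the change over time itself differed by genotype was tested as an interaction. From 96 to 120 h all 10 members fell in WT-emiRFP cells, where 21% of all tested genes fell and 42.3% changed. In p53KO-emiRFP cells 6 changed (beside 35% of genes). Sp5, Tcf7, Axin2 and Dkk4 fell, and Lef1 (0.33 ± 0.10, adjusted p = 0.0053) and Lgr5 (0.48 ± 0.18, adjusted p = 0.026) rose. The rise of Lgr5 did not pass when any 1 replicate was left out, and that of Lef1 did not pass without replicate 2. The fall of Axin2 in p53KO-emiRFP cells did not pass without replicate 2 or replicate 3, nor did that of Lgr5 in WT-emiRFP cells. The change was more positive in p53KO-emiRFP cells for 9 of 10 members, where 16.9% of all tested genes had such a difference and 30.8% differed in either direction. These 9 also passed when any 1 replicate was left out.

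In Rspo3 this difference was 3.11 ± 0.25 (adjusted p = 5.3e-15) on the log2 scale: WT-emiRFP cells kept 10.1% (8.08 to 12.2%) of the 96 h level at 120 h and p53KO-emiRFP cells 87.5% (80.2 to 92.9%), where the ranges are those of same-numbered replicates. In Dkk1 it was 2.89 ± 0.39 (adjusted p = 3.1e-08), with 10.3% (4.71 to 18.1%) kept in WT-emiRFP and 76.0% (57.7 to 96.9%) in p53KO-emiRFP cells. These were the largest differences of the 9. Sp5 differed by 2.00 ± 0.22 (adjusted p = 2.1e-10), with 8.37% (7.15 to 10.8%) and 33.4% (28.6 to 40.3%) kept, so that it fell in each population.

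Lef1 had opposite directions, with a change of -1.50 in WT-emiRFP and 0.33 in p53KO-emiRFP cells and a difference of 1.83 ± 0.14 (adjusted p = 7.7e-16). For Nkd1 the difference was 1.64 ± 0.16 (adjusted p = 1.5e-12), for Lgr5 1.19 ± 0.26 (adjusted p = 0.00031), for Axin2 1.09 ± 0.10 (adjusted p = 5.2e-13), for Notum 1.05 ± 0.19 (adjusted p = 1.2e-05) and for Tcf7 0.32 ± 0.074 (adjusted p = 0.00065). Dkk4 fell to near 0 in each population, and its difference of 1.27 ± 0.57 (adjusted p = 0.085) did not pass.

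**Figure D3:**
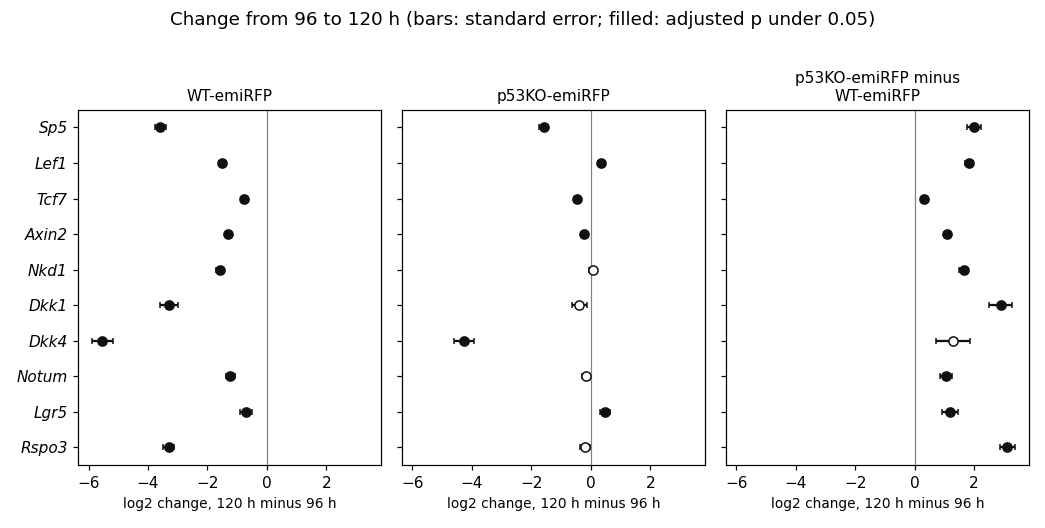
Log2 change from 96 to 120 h of each member in WT-emiRFP cells, in p53KO-emiRFP cells, and the difference between them. Bars are standard errors and filled points passed the threshold. All 10 points lie left of 0 in WT-emiRFP cells, and 9 of 10 differences are filled and lie right of 0.

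In the other intervals fewer members differed by genotype. From 0 to 48 h, 1 member differed (beside 5.99% of genes), Axin2 with 0.54 ± 0.11 (adjusted p = 0.0011). From 48 to 72 h it was again 1 (1.76% of genes), Axin2 with -0.46 ± 0.10 (adjusted p = 0.0059). The former did not pass without replicate 2, nor the latter without replicate 1 or replicate 2. From 72 to 96 h, 3 differed (11% of genes), namely Lef1 (-0.45 ± 0.14, adjusted p = 0.023), Dkk4 (-1.18 ± 0.39, adjusted p = 0.038) and Notum (0.65 ± 0.19, adjusted p = 0.017). None of these 3 passed without replicate 1 or without replicate 2, and Lef1 and Dkk4 did not without replicate 3 either.

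From 120 to 144 h, 6 differed, beside 16.9% of genes. Sp5 (1.52 ± 0.29, adjusted p = 7.3e-05) and Rspo3 (2.40 ± 0.33, adjusted p = 1.4e-07) fell less in p53KO-emiRFP cells. Dkk1 (-3.07 ± 0.47, adjusted p = 1.2e-06) and Notum (-1.36 ± 0.20, adjusted p = 3.7e-07) fell in p53KO-emiRFP cells, by 3.26 and 1.26, whereas their changes in WT-emiRFP cells, -0.19 and 0.10, did not pass. In the interval before, both fell in WT-emiRFP cells, while their changes in p53KO-emiRFP cells of -0.39 ± 0.26 (adjusted p = 0.25) and -0.18 ± 0.13 (adjusted p = 0.33) did not pass. Lef1 (-0.46 ± 0.14, adjusted p = 0.017) and Tcf7 (-0.22 ± 0.075, adjusted p = 0.034) fell more in p53KO-emiRFP cells, differences that were lost without replicate 2 or replicate 3, and for Tcf7 also without replicate 1.

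The second comparison asked whether WT-mCherry cells differed by their neighbours, which were 25 seeded p53KO-emiRFP or 150 seeded WT-emiRFP cells. The effects of the neighbours' genotype, clone and seeding number cannot be told apart. This comparison shares no library with that of emiRFP cells, but its cells came from the same gastruloids. At 48 and 72 h none of the 8 and 10 tested members passed by edgeR's test, where 0.0736% and 0.559% of all genes did. At an unadjusted p under 0.05, 1 member of 8 passed at 48 h and 3 of 10 at 72 h, beside 6.05% and 9.85% of all genes. With the replicate number as a block Lef1 passed at 48 h (0.14, adjusted p = 0.0091), beside 4.94% of all genes. DESeq2 called no member at either time, beside 0.46% and 1.86% of genes. At 96 h 1 of 10 passed, beside 3.92% of genes. Dkk4 was at 178, 188 and 197 beside p53KO cells and 452, 434 and 359 beside WT cells, a log2 fold change of -1.14 ± 0.12 (adjusted p = 0.0014). Without replicate 1 no gene of any kind passed at 96 h, and Dkk4 had -1.04 (adjusted p = 0.33). With the replicate number as a block, Axin2 (-0.14, adjusted p = 0.0038) and Dkk1 (-0.42, adjusted p = 0.0013) were lower too, beside 20.8% of all genes. Subtraction of emiRFP RNA left Dkk4 at -1.15 (adjusted p = 0.0012) by H2bc14 and -1.15 (adjusted p = 0.0011) by H2bc21.

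At 120 h 8 of 10 members were higher in WT-mCherry cells beside p53KO cells, where 5.94% of all genes passed and 3.41% were higher. All 10 members were higher in every library beside p53KO cells than in any beside WT cells, which held for 11.4% of all tested genes. After subtraction some groups overlapped. By H2bc14 this was Dkk4 (lowest beside p53KO cells 8.970, highest beside WT cells 8.991). By H2bc21 these were Nkd1 (1968 and 1986), Dkk1 (55.3 and 70.5) and Dkk4 (8.86 and 9.07). Sp5 was at 1757, 1967 and 1426 beside p53KO cells and 828, 861 and 665 beside WT cells, a log2 fold change of 1.13 ± 0.12 (adjusted p = 0.00027). Dkk1 was at 120.0, 163 and 115 against 59.9, 70.2 and 35.9, a log2 fold change of 1.28 ± 0.26 (adjusted p = 0.012). Rspo3 was at 2103, 2559 and 2255 against 1524, 974 and 1156, a log2 fold change of 0.92 ± 0.16 (adjusted p = 0.0047). For all 3 the WT-mCherry level beside p53KO cells lay below that of p53KO-emiRFP cells and above those of the WT populations of WT + WT gastruloids. Notum (0.76 ± 0.12, adjusted p = 0.0024), Axin2 (0.64 ± 0.053, adjusted p = 6.6e-05), Lef1 (0.56 ± 0.10, adjusted p = 0.0046), Nkd1 (0.54 ± 0.11, adjusted p = 0.012) and Tcf7 (0.32 ± 0.065, adjusted p = 0.011) were also higher. The values of Lgr5 (0.61 ± 0.18, adjusted p = 0.060) and Dkk4 (1.38 ± 0.52, adjusted p = 0.15) did not pass.

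The 9 calls in p53KO-emiRFP cells at 120 h all passed when any 1 replicate was left out, while those in WT-mCherry cells did not. Without replicate 1, 4 members passed (beside 0.736% of all genes), with Tcf7, Nkd1, Dkk1 and Notum lost, and without replicate 3, 5 (beside 2.04%), with Lef1, Nkd1 and Rspo3 lost. After subtraction of emiRFP RNA by H2bc14 all 8 still passed, beside 4.99% of all genes. By H2bc21, which gave larger shares, 5 did, beside 4.01%, and the log2 fold changes were 0.78 (adjusted p = 0.23) for Dkk1, 0.39 (adjusted p = 0.099) for Nkd1 and 0.62 (adjusted p = 0.065) for Rspo3. Sp5 remained at 0.98 (adjusted p = 0.0032) and Axin2 at 0.58 (adjusted p = 0.00056).

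At 120 h, 5 of 8 caudal epiblast and all 7 paraxial mesoderm markers were also higher in the WT-mCherry cells of WT + p53KO gastruloids. Of all tested genes, 5.94% passed and 3.41% were higher. The caudal epiblast list summed to 28519.8 to 34105 beside p53KO and 20460.5 to 24953 beside WT cells, and the paraxial mesoderm list to 9526 to 12469 and 4691 to 5708. After subtraction of emiRFP RNA, 5 higher and 0 lower passed for caudal epiblast by H2bc14 (sums 26503 to 33258 against 20520.3 to 25105) and 2 higher and 0 lower by H2bc21 (sums 21879 to 31049 against 20606 to 25275, which overlap). All 7 paraxial mesoderm markers passed after either subtraction, with sums of 8133 to 11382 against 4748 to 5805 by H2bc21. Over all genes 4.99% passed by H2bc14 and 4.01% by H2bc21. Of naive pluripotency markers 2 of 7 were lower, and 1 by H2bc21 (sums before subtraction 40502 to 43670.5 and 46990.3 to 59169). Haematoendothelial markers had 0 higher and 4 lower of 8, primordial germ cell markers 0 higher and 2 lower of 6, neural markers 0 higher and 2 lower of 7 and somite markers 1 higher and 0 lower of 6. By H2bc21 these counts became 0 higher and 3 lower, 0 higher and 1 lower, 0 higher and 1 lower and 1 higher and 0 lower. No endoderm and no cardiac or lateral plate marker passed. No marker was at 0 in a whole group, and the part of composition in the result was not tested.

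At 144 h 4 of 9 tested members were higher beside p53KO cells, where 25.6% of genes passed and 10.1% were higher. Sp5 was at 255, 249.7 and 193 against 71.7, 81.5 and 65.9, a log2 fold change of 1.66 ± 0.17 (adjusted p = 5.8e-05). Tcf7 (0.40 ± 0.056, adjusted p = 0.00034) and Axin2 (0.37 ± 0.087, adjusted p = 0.0079) were higher as well. These 3 also passed after either subtraction. Rspo3 was at 185, 148 and 166 against 66.4, 63.7 and 68.0, with a log2 fold change of 1.34 ± 0.17 (adjusted p = 0.00023). After subtraction the fitted values were -0.072 (adjusted p = 0.94) by H2bc14 and -0.84 (adjusted p = 0.49) by H2bc21. In some libraries the estimate exceeded the Rspo3 level itself, which was then set to 0. This was so in replicate 1, where the RNA to be subtracted came to 215 by H2bc14 and 252 by H2bc21, and in replicate 3 by H2bc21, where it came to 228. By H2bc14, with a share of 8.49%, replicate 3 fell to 67.2, inside the range beside WT cells. In replicate 2, where the estimated share of emiRFP RNA was 2.33% by H2bc14 and 2.75% by H2bc21, Rspo3 was at 148, or 122 and 118 after subtraction, above all 3 libraries beside WT cells. The level in p53KO-emiRFP cells, from which the subtracted RNA was taken, was 1236 ± 74.2 at this time.

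Nkd1 (-0.12 ± 0.12, adjusted p = 0.52), Lgr5 (-0.49 ± 0.23, adjusted p = 0.13), Lef1 (0.061 ± 0.082, adjusted p = 0.63), Dkk1 (0.34 ± 0.45, adjusted p = 0.62) and Notum (-0.026 ± 0.12, adjusted p = 0.90) did not pass. With the replicate number as a block Lgr5 passed as lower (adjusted p = 0.047), beside 37.3% of all genes. After subtraction Nkd1 passed as lower, with -0.36 (adjusted p = 0.018) by H2bc14 and -0.55 (adjusted p = 0.011) by H2bc21. Over all genes 32.9% and 36% then passed. By H2bc21 Lef1 and Lgr5 passed as lower too, with -0.21 (adjusted p = 0.030) and -0.76 (adjusted p = 0.042). Of the markers, 6 higher and 1 lower of 8 for caudal epiblast (sums 6496 to 8370.0 against 6091 to 7233) and 6 higher and 0 lower of 7 for paraxial mesoderm passed (sums 1081 to 1322 against 919 to 1058). Before subtraction 25.6% of all genes passed and 10.1% were higher. After subtraction by H2bc14 the counts were 3 higher and 2 lower for caudal epiblast (sums 4517 to 6016 against 6130.0 to 7307) and 1 higher and 1 lower for paraxial mesoderm (sums 489 to 1005 against 919 to 1065). By H2bc21 they were 1 higher and 2 lower and 0 higher and 1 lower, so that 1 of these 15 markers passed as higher. The other lists also moved by H2bc21, beside 36% of all genes. Neural markers had 0 higher and 5 lower of 7, somite markers 0 and 3 of 6 and haematoendothelial markers 1 and 5 of 8. Naive pluripotency markers had 5 higher and 0 lower of 7 and primordial germ cell markers 4 and 1 of 6. Endoderm and cardiac or lateral plate markers each had 2 higher and 0 lower of 6. The part of these cell types in the result was not tested.

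**Figure D4:**
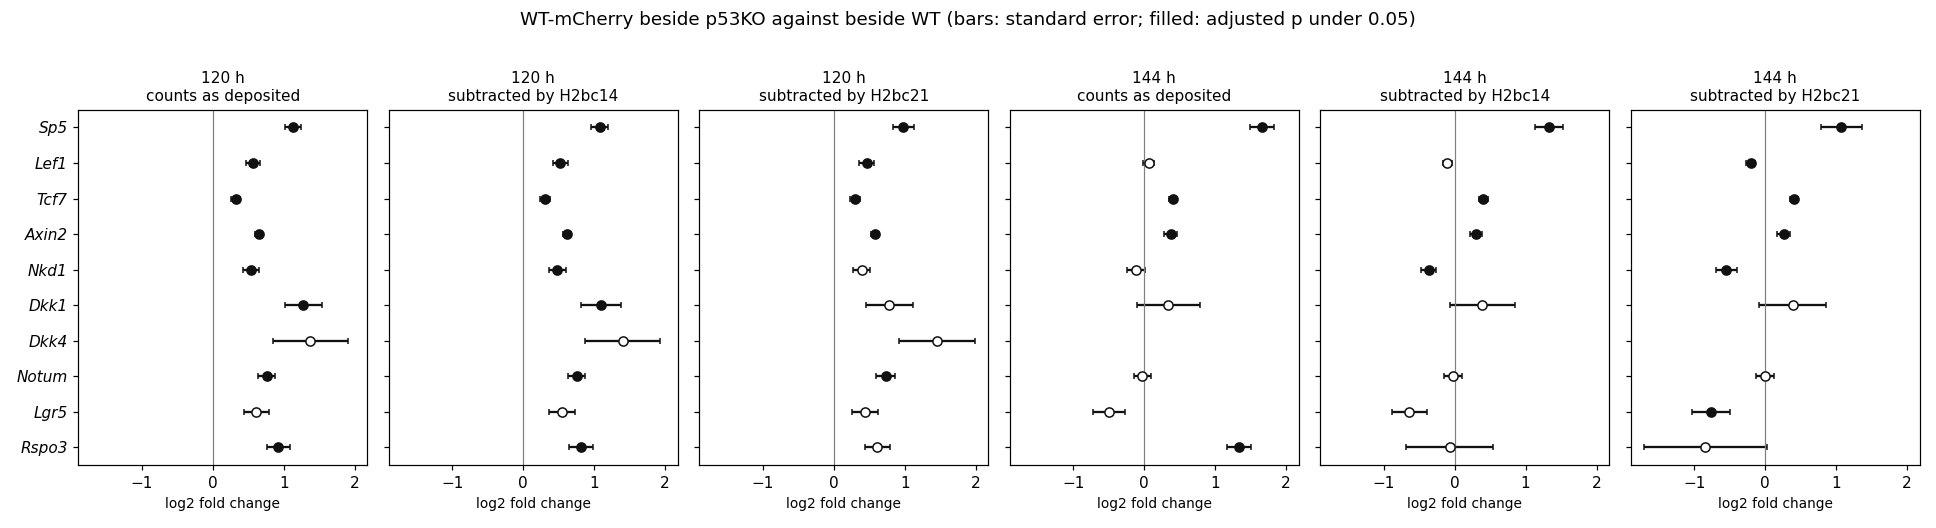
Log2 fold change of WT-mCherry cells by neighbour (p53KO over WT) at 120 h (3 panels on the left) and 144 h (right), from the counts as deposited and after subtraction of emiRFP RNA estimated from H2bc14 or H2bc21. Bars are standard errors, filled points passed the threshold, and Dkk4 was not tested at 144 h. The points at 120 h lie right of 0 in all 3 panels, while Rspo3 at 144 h moves from 1.34 to below 0, where the subtraction set its level to 0 in replicate 1 and, by H2bc21, also in replicate 3.

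The WT clones were compared as a background for both comparisons above, with each of which this one shares libraries. WT-mCherry and WT-emiRFP differed in none of the tested members at 0, 48, 96 and 120 h, where 11.1%, 8.9%, 2.15% and 1.22% of all genes passed. At an unadjusted p under 0.05, 1, 3, 1 and 5 of the members passed at these times, beside 27%, 23.2%, 16.2% and 14.1% of all genes. DESeq2 called 1, 1, 0 and 1, beside 15%, 10.7%, 5.34% and 4.51%. At 72 h 2 of 10 passed (beside 7.64%), Nkd1 with -0.29 ± 0.076 (adjusted p = 0.032) and Dkk1 with -0.41 ± 0.11 (adjusted p = 0.036), both lower in WT-mCherry cells. Neither passed without replicate 1 or replicate 2, nor Dkk1 without replicate 3. At 144 h 4 of 9 passed, beside 23.8% of genes. Rspo3 was at 66.4, 63.7 and 68.0 in WT-mCherry and 51.3, 24.1 and 30.4 in WT-emiRFP cells (0.89 ± 0.21, adjusted p = 0.0073), Lgr5 differed by 1.17 ± 0.24 (adjusted p = 0.0035) and Nkd1 by 0.66 ± 0.12 (adjusted p = 0.0021), and Notum by -0.37 ± 0.12 (adjusted p = 0.045). Without replicate 3 only Lgr5 passed, without replicate 1 Notum and Lgr5 were lost, and without replicate 2 Rspo3. With the replicate number as a block, 3, 5, 3 and 6 members passed at 48, 96, 120 and 144 h, beside 28.9%, 15.9%, 10.8% and 33.9% of all genes in the same fit.

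The rest of the pathway was followed in 6 lists, in p53KO-emiRFP against WT-emiRFP cells. All 17 other Wnt target genes of the primitive streak and tail bud were tested. Of all tested genes 23.3%, 51% and 65.4% passed at 96, 120 and 144 h. In this list 7 higher and 5 lower passed at 96 h. The counts were 16 higher and 0 lower at 120 h, with a median log2 fold change of 1.91, and 17 higher and 0 lower at 144 h. At 120 h the largest were Msgn1 (1696 ± 88.6 against 66.1 ± 21.03, log2 fold change 4.69 ± 0.25, adjusted p = 3.6e-09), Tbx6 (6125 ± 820.0 against 418 ± 55.7, log2 fold change 3.88 ± 0.18, adjusted p = 1.0e-09) and Mixl1 (339.6 ± 40.7 against 36.7 ± 6.77, log2 fold change 3.21 ± 0.21, adjusted p = 2.2e-08), transcription factors of presomitic mesoderm and of the streak. In WT-mCherry cells by neighbour, this list had 9 higher and 0 lower at 120 h, beside 5.94% of all genes, and 8 higher and 0 lower after subtraction by H2bc14 and 6 higher and 0 lower by H2bc21. T, Nkx1-2, Cdx2, Fgf8, Cyp26a1, Tbx6 and Msgn1 are also in the marker lists above.

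The ligands changed in both directions. Of 19 Wnt genes, 17 were tested at 120 h, and 7 higher and 3 lower passed (median log2 fold change 0.39). Wnt3a, a ligand of the tail bud, was at 3630.5 ± 399 against 351 ± 32.9, log2 fold change 3.37 ± 0.17 (adjusted p = 1.7e-09). Wnt10a was lowly expressed, at 80.5 ± 8.75 against 10.8 ± 6.29, log2 fold change 2.87 ± 0.30 (adjusted p = 2.6e-06), and Wnt7b went the other way, at 128 ± 26.9 against 807 ± 134, log2 fold change -2.66 ± 0.19 (adjusted p = 5.2e-08). Of 16 receptors and co-receptors, 9 higher and 4 lower passed (median 0.32). Ptk7, a co-receptor that takes part in planar cell polarity, was at 44607 ± 1402 against 17025 ± 974, log2 fold change 1.39 ± 0.064 (adjusted p = 8.6e-10), Fzd10 at 10642 ± 371 against 4884 ± 131, log2 fold change 1.12 ± 0.058 (adjusted p = 3.1e-09), and Fzd5 at 357 ± 55.3 against 840.3 ± 88.8, log2 fold change -1.23 ± 0.15 (adjusted p = 9.7e-06). At 144 h, when 65.4% of all tested genes passed and 33.2% were higher, the ligands had 8 higher and 3 lower of 18, a share near that of all genes, and the receptors 14 higher and 1 lower of 16.

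In the rest of the R-spondin arm 6 of 7 genes were tested, of which 3 higher and 2 lower passed at 120 h (median 0.33). The ligands Rspo4 (80.4 ± 6.50 against 32.2 ± 5.52, log2 fold change 1.32 ± 0.18, adjusted p = 3.9e-05) and Rspo1 (496 ± 37.7 against 286 ± 7.22, log2 fold change 0.79 ± 0.11, adjusted p = 3.5e-05) were higher and the receptor Lgr6 (25.4 ± 6.82 against 94.2 ± 6.53, log2 fold change -1.88 ± 0.24, adjusted p = 1.5e-05) was lower. Of 18 genes for secretion and transduction, 6 higher and 3 lower passed (median 0.11). Wls, which carries Wnt ligands to the surface, was at 8194 ± 644 against 3934 ± 592, log2 fold change 1.06 ± 0.12 (adjusted p = 4.6e-06), and Porcn, which attaches their lipid, at 936 ± 136 against 3103 ± 276, log2 fold change -1.73 ± 0.10 (adjusted p = 8.2e-09). Tcf7l1, a TCF that mostly represses, was at 1255 ± 63.8 against 2396 ± 158, log2 fold change -0.93 ± 0.075 (adjusted p = 1.9e-07). The shares of ligands (10 of 17) and of these 18 genes (9) that passed are near the 51% of all tested genes. Of 18 other antagonists, 12 higher and 2 lower passed (median 0.49), led by Dkk2 (68.6 ± 3.22 against 12.7 ± 5.40, log2 fold change 2.43 ± 0.26, adjusted p = 3.0e-06), Frzb (1300.1 ± 97.6 against 414 ± 76.5, log2 fold change 1.65 ± 0.13, adjusted p = 1.4e-07) and Apcdd1 (1931 ± 249 against 630.1 ± 82.3, log2 fold change 1.62 ± 0.14, adjusted p = 5.2e-07). In WT-mCherry cells by neighbour at 120 h, when 5.94% of all tested genes passed and 3.41% were higher, the ligands had 5 higher and 1 lower of 17, the receptors 2 higher and 2 lower, the R-spondin arm 1 higher and 1 lower, secretion and transduction 0 higher and 1 lower and the other antagonists 3 higher and 1 lower. After subtraction by H2bc21 these counts were 3 higher and 0 lower, 0 higher and 1 lower, 1 higher and 0 lower, 0 higher and 1 lower and 2 higher and 0 lower, in the same order.

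Finally, the genes whose means over the 23 groups were most like those of each member were listed among 14077 genes with a mean of at least 50 normalized counts, by Pearson r of log2(normalized count + 1). These values are descriptions across groups that share time points and libraries. Sp5 was most like Evx1 (0.990), Fzd10 (0.983) and Evx1os (0.971), of which Fzd10 encodes a Wnt receptor. Axin2 was closest to Adamts18 (0.983), Fgf8 (0.982) and Nkx1-2 (0.981), and Nkd1 to Mospd1 (0.985), Lrrk1 (0.983) and Sp8 (0.983). Several of these are genes of the caudal epiblast and tail bud. Rspo3 was most like Arid3b (0.979), Rftn1 (0.978) and Stra6l (0.976), and Dkk1 like Nod2 (0.965), Wnt3a (0.957) and Avpr1b (0.957). Lef1 had Cdca7l (0.957), Tor1b (0.953) and Timm21 (0.948), Tcf7 Epha1 (0.971), Pgr (0.965) and Alcam (0.965), Lgr5 Stxbp5 (0.974), Cldn15 (0.963) and Scd2 (0.957) and Dkk4 Grsf1 (0.977), Sprr2a3 (0.972) and Olfr539 (0.970). For Notum they were Notumos (0.985), Nradd (0.931) and Peak1 (0.923). The symbol Notumos names an opposite-strand transcript of Notum, and the strand setting of the count is not given in the sources used here, so reads of this pair may not be separated. Notum was also the member least like the others, with r from -0.39 with Lgr5 to 0.57 with Dkk1.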

How the data were processed

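Bulk mRNA of 69 libraries in 23 groups, each with 3 replicates, was measured. Per the study's methods the authors trimmed reads with Trim Galore (0.6.7), aligned them to GRCm38.p6 with STAR (2.7.11b) and deposited raw counts of uniquely mapped reads per gene, with no normalization. The strand setting is not given in the sources used here.

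Counts were scaled by median-of-ratios size factors, filtered with filterByExpr and tested with edgeR (4.0.16, R 4.3.3) by quasi-likelihood, with Benjamini-Hochberg adjustment over all tested genes and a threshold of 0.05. Each time point was fitted alone with its 12 libraries (9 at 0 h). Changes over time and their differences were fitted over all 69. Standard errors were derived from the log2 fold change and its F statistic. The edgeR code was tested on simulated data.

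The members and gene lists were chosen with earlier results of these data known. From each list, up to 3 called genes with the largest change by genotype at 120 h were named, and for each member its 3 most similar genes. The methods do not say that a replicate number marks an experiment, but deviations of same-numbered replicates correlated by over 0.1 in every pair in all comparisons of genotype (lowest 0.118), and of neighbours (lowest 0.160) and WT clones (lowest 0.276) except neighbours at 120 h and clones at 0 and 72 h. The share of emiRFP RNA in a WT-mCherry library was estimated as its H2bc14 or H2bc21 level above that of WT-mCherry mES cells, relative to the emiRFP population of the same gastruloids and time, limited to 50%. That share of the mean emiRFP counts was then subtracted. Alternatives were TMM scaling, no count filter, a replicate block, DESeq2 (1.42.0), leaving out each replicate, other sets of libraries in the fit and this subtraction. Promoters and gene positions came from RefSeq and Gencode vM21, neither of which is the annotation release that the study's methods name for counting.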

Additional observations from a re-analysis of the deposited data

Results flagged for a closer look

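The change between consecutive times differed by genotype, tested as an interaction in edgeR's quasi-likelihood fit, in 20 cases, given here as p53KO-emiRFP minus WT-emiRFP on the log2 scale. From 0 to 48 h this was Axin2 (0.54), and from 48 to 72 h Axin2 again (-0.46). From 72 to 96 h these were Lef1 (-0.45), Dkk4 (-1.185) and Notum (0.65). From 96 to 120 h they were Sp5 (1.996), Lef1 (1.83), Tcf7 (0.315), Axin2 (1.095), Nkd1 (1.64), Dkk1 (2.89), Notum (1.05), Lgr5 (1.19) and Rspo3 (3.11). From 120 to 144 h they were Sp5 (1.52), Lef1 (-0.455), Tcf7 (-0.22), Dkk1 (-3.07), Notum (-1.36) and Rspo3 (2.40). Successive intervals share the libraries of the time between them, so that their values are not independent.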

How the results depend on the processing

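The 9 members higher in p53KO-emiRFP cells at 120 h, and the 9 that differed in their change from 96 to 120 h, passed in every alternative tried. For the 186 differences of single members that passed under some setting, 1492 values under the alternatives were compared. Of these 1335 kept direction and side of the threshold, 76 lost the call, 76 gained one and 5 turned, all at 144 h by neighbour. Outside these, 66 values turned sign in differences that no setting called. Lef1 ranged from -0.016 to 0.12 when 1 replicate was left out, with the former without replicate 1, and turned by H2bc14 (-0.10) and H2bc21 (-0.21), and Rspo3 turned by H2bc14 (-0.072) and by H2bc21 (-0.84), where the subtraction exceeded its level in replicate 1 and, by H2bc21, also in replicate 3.

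Counts of members called changed as follows. With the replicate block, they went from 0 to 1 by neighbour at 48 h, from 1 to 3 by genotype at 48 h and by neighbour at 96 h, and from 0 to 3, 5 and 3 between WT clones at 48, 96 and 120 h. At 0 h, where clones did not pass the pairing check, it gave 1. In the neighbour comparison at 120 h and between clones at 72 h, also unpaired, it gave 9 and 3. It changed no other count by over 1.5 times. Without a count filter the counts were 1, 1, 3 and 4 between clones at 0, 48, 96 and 120 h, 1 and 2 by neighbour at 72 and 96 h, and 2 and 2 for the differences from 0 to 48 and 48 to 72 h. TMM gave 1 between clones at 0 h and 2 by genotype at 48 h. DESeq2 gave 1, 1 and 1 between clones at 0, 48 and 120 h, 2 by genotype at 48 h and 2 for the difference from 0 to 48 h. With only the 6 libraries compared, the count was 0 by genotype at 0 h and 0 between clones at 72 h. With all 69 libraries it was 2, 1, 0 and 1 between clones at 0, 48, 72 and 120 h. By H2bc21 it was 5 by neighbour at 120 h, beside 4.01% of all genes. Calls over all genes changed with the setting too. With the replicate block those between clones went from 8.9%, 2.15% and 1.22% to 28.9%, 15.9% and 10.8% at 48, 96 and 120 h. The counts here and those with 1 replicate left out describe dependence on processing and are no result about the members.

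With 1 replicate left out, counts ranged from 0 to 1 by genotype at 0 h and from 1 to 4 at 96 h, from 0 to 1 and 4 to 8 by neighbour at 96 and 120 h, and from 0 to 1, 0 to 2 and 1 to 3 between clones at 72, 120 and 144 h. They ranged from 0 to 1 for each difference of change up to 96 h, and from 3 to 5 for p53KO-emiRFP cells from 96 to 120 h. Over all genes, the neighbour comparison at 120 h gave 1122 calls, 140 without replicate 1, 609 without replicate 2, 385 without replicate 3 and 3825 with the replicate block. At 96 h it gave 720, with 0 without replicate 1 and 24 without replicate 2. The cause of these changes was not tested. With pseudocount 10, all 3 most similar genes were again found for 7 members, and 2 of 3 for Axin2, Dkk1 and Rspo3. Low counts limit the values of Dkk4 outside 72 to 96 h, of Lgr5 and Rspo3 at 0 h, and of Sp5, Dkk1 and Rspo3 at 48 h, from which their rises to 72 h start.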
